A study of Homo sapiens with 6 samples.

Results

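PRUNE2 and the long noncoding RNA (lncRNA) PCA3 share 1 stretch of chromosome 9 on opposite strands, and their 32 annotated transcripts were followed in 6 RNA sequencing libraries. The pair was chosen by its symbols, out of 61279 annotated genes, with the levels of both genes in the same 6 libraries already known, so those levels are given as a description with no test. The study asked what MI-503, an inhibitor of the binding of menin to the histone methyltransferase MLL1, does to expression in T47D, a line derived from a hormone receptor positive breast cancer, here with a wild-type genotype in the labels. The study itself describes T47D as carrying a PIK3CA mutation. T47D cells were exposed to the solvent DMSO (n = 3) or to 4 μmol/L MI-503 (n = 3), both for 24 hours, and the libraries carried 17404736 to 22168525 estimated reads. Samples of 1 group are called biological replicates in the labels, which do not say more about how they were grown apart, so p-values and spreads measure the variation between these samples only.

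The libraries labelled DMSO did not carry the defining markers of T47D. By edgeR's quasi-likelihood test with Benjamini-Hochberg adjustment, 31.2% of 16442 genes were lower in the libraries labelled MI-503 and 31.7% higher. Of 13 prostate markers, 12 were lower and SPDEF was higher, and their summed level was 7168 to 9052 CPM (counts scaled to library size) in the DMSO libraries against 421 to 492 CPM in the MI-503 libraries. The prostate-specific antigen gene KLK3 stood at 3703 ± 47.9 CPM (SD, n = 3) in DMSO, with no reads in MI-503. Of 14 luminal breast markers, 12 could be tested and all 12 were higher in MI-503, with a summed level of 303 to 459 CPM in DMSO and 10870 to 14050 CPM in MI-503. ESR1, the estrogen receptor, was at 0.0645 ± 0.112 CPM in DMSO and 248 ± 43.5 CPM in MI-503. The groups are therefore called by their labels, and the treatment and a difference between the cells in the tubes cannot be told apart in any value that follows. PRUNE2 and PCA3 had reads in the libraries with prostate markers and none in the others.

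PRUNE2 encodes a large protein with a prune domain and a BCH domain (named after BNIP2 and Cdc42GAP), a fold found in proteins that bind small GTPases such as RHOA. PCA3 is best known as a prostate cancer marker that is measured in urine. It is transcribed from inside a long intron of PRUNE2 on the other strand, and earlier work has described pairing of PCA3 with the PRUNE2 pre-mRNA and adenosine-to-inosine editing of that duplex by ADAR enzymes. That background set the other genes examined here, which are the editing machinery, the relatives of PRUNE2, the RHOA cycle and the neighbours on the chromosome.

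In GENCODE, PRUNE2 (ENSG00000106772.19) runs over 294739 bases on the minus strand of GRCh38, chr9:76611376-76906114, and has 14 transcripts. PCA3 (ENSG00000225937.3) runs on the plus strand over chr9:76691980-76863307 and has 18 transcripts. RefSeq draws PCA3 much shorter, at chr9:76764436-76787569, and that whole span lies within intron 6 of PRUNE2-203, a gap of 109910 bases at chr9:76713722-76823631. PRUNE2 has annotated starts at 2 places with a RefSeq promoter. The upstream start gives the long transcripts, whose introns hold PCA3, and the internal start gives short ones that begin beyond RefSeq PCA3. The 250 bases before the upstream start (chr9:76906115-76906364, minus strand), the internal start (chr9:76692198-76692447, minus strand) and the RefSeq start of PCA3 (chr9:76764186-76764435, plus strand) are printed because the RNAs from all 3 had reads in one set of libraries and not in the other. They are from the RefSeq promoters on GRCh38.p14, 5′ to 3′ on the strand of the gene, with CG dinucleotides in capitals.
PRUNE2 upstream start: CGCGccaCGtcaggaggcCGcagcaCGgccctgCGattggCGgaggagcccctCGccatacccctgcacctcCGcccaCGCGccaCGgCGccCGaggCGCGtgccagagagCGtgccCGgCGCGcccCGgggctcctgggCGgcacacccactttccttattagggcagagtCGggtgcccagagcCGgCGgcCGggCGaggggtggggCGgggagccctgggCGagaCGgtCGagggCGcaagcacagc
PRUNE2 internal start: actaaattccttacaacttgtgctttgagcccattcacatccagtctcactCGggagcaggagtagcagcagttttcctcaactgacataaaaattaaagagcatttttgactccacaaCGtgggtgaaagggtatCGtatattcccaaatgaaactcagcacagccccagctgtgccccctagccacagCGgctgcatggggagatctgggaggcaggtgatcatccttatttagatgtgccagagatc
PCA3 start: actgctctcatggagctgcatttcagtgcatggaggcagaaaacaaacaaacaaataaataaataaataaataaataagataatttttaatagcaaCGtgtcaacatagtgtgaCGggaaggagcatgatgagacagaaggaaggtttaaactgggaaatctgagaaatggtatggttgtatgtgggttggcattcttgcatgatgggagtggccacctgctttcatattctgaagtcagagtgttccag

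The 3 windows differed in base composition. The upstream start of PRUNE2 held 32 CG dinucleotides and 76.4% G and C, and 90.5% of 34788 distinct RefSeq promoter windows of the same length held fewer CG dinucleotides. The internal start held 4 CG dinucleotides at 48% G and C, and the PCA3 window held 2 at 39.2%. The median promoter held 11 CG dinucleotides at 58% G and C. Both strands were searched for fixed motif letters. The GC box GGGCGG occurred 3 times before the upstream start of PRUNE2, against a share of 42.6% of all windows with at least 1 copy. The GATA letters AGATAA occurred 1 time before PCA3, and 9.21% of all windows held them. None of the 3 windows held the androgen receptor core letters TGTTCT (12.4% of all windows), the forkhead letters TGTTTAC (2.98%), the HOXB13 letters CCAATAAA (0.868%), the ETS letters CCGGAAG (8.50%) or the TATA box TATAAA (10.8%).

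PRUNE2 was strongly expressed in every library labelled DMSO. Summed over its 14 transcripts, it had 10859 estimated reads in DMSO replicate 1, 6573 in replicate 2 and 5147 in replicate 3, and 0 reads in each MI-503 library. On the TPM scale, which corrects for transcript length and library size, these were 79.3, 53.2 and 33.7 TPM, a mean of 55.4 ± 22.9 TPM (SD, n = 3). In CPM the same libraries stood at 491, 318 and 234, a mean of 348 ± 131. The groups did not overlap, and the DMSO libraries differed among themselves by up to 2.09 times. With the 3 MI-503 libraries pooled and 3 reads over the group taken as the floor that a count of 0 allows, PRUNE2 was at least 6568-fold lower in MI-503. The bound depends on how many libraries are pooled and was at least 4182-fold without MI-503 replicate 1 and at least 4344-fold without MI-503 replicate 2. Such floors cover counting error only. In bulk RNA, fewer cells of a type and less RNA per cell cannot be told apart.

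**Figure D1:**
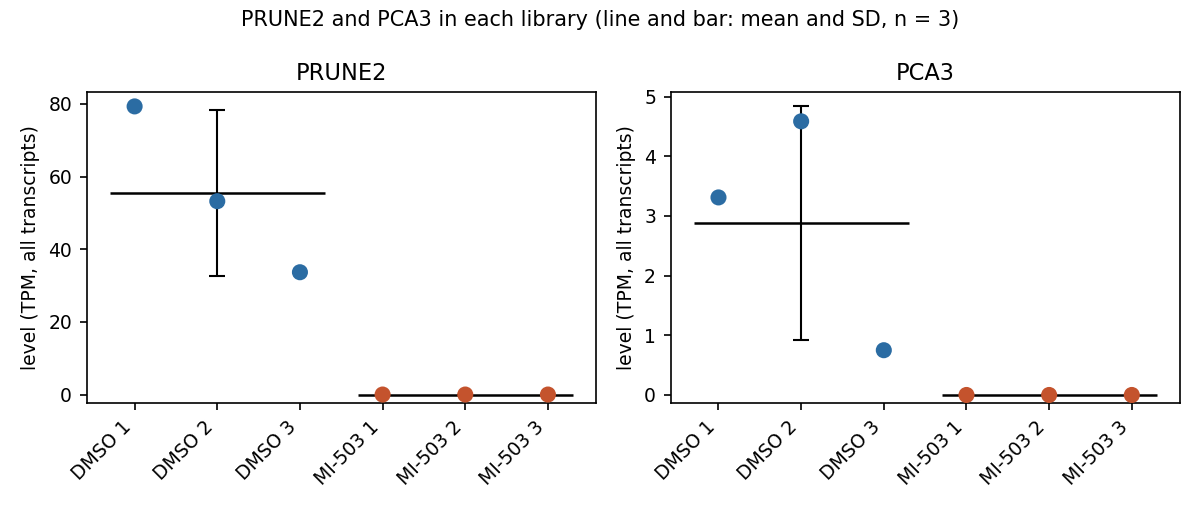
Level of PRUNE2 (left) and PCA3 (right) in TPM, summed over all transcripts, in each of the 6 libraries, with a horizontal line and bar for the mean and SD of each group (n = 3). PRUNE2 sits at 33.7 to 79.3 TPM and PCA3 at 0.750 to 4.58 TPM in DMSO, and both are at 0 in every MI-503 library.

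Complete absence from the MI-503 libraries was rare over all genes tested, counted at any level in DMSO. Of 16442 genes that passed the low-count filter, 313 (1.90%) had no reads in any MI-503 library, and among those 313 KLK3 was the single gene with a higher mean in DMSO than PRUNE2. That count needs exactly 0 reads, and near absence was shared by other genes. HOXB13, FOLH1 and KLK2 had means of 551, 545 and 355 CPM in DMSO. Their means in MI-503 were 0.0162, 0.154 and 0.0162 CPM. PRUNE2 also varied more between the DMSO libraries than most genes of its abundance. Its coefficient of variation was 37.6%, the median over the 2226 genes at 100 CPM or more in DMSO was 14.1%, and 4.70% of those genes had a larger one. The mitochondrial share of reads was 3.75%, 1.37% and 7.12% in DMSO replicates 1, 2 and 3, so the highest PRUNE2 level fell in the library with the middle share, and its part in the spread was not tested. KLK3 had a coefficient of variation of 1.30% in the same libraries.

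PCA3 was detected in the same 3 libraries at a far lower level. It had 43.9, 47.4 and 15.0 estimated reads in DMSO replicates 1, 2 and 3, and 0 reads in each MI-503 library. These correspond to 1.98, 2.29 and 0.683 CPM (1.65 ± 0.854, SD, n = 3) and to 3.31, 4.58 and 0.750 TPM (2.88 ± 1.95). The groups did not overlap, and DMSO replicate 3 stood lowest for PCA3 as it did for PRUNE2. PCA3 was at least 30.9-fold lower in MI-503 by the same floor, and at least 19.7-fold without MI-503 replicate 1 and 20.5-fold without MI-503 replicate 2. Among 2343 tested lncRNA genes, 1250 had a higher mean CPM in DMSO than PCA3, so the absence of PCA3 reads in MI-503 was read at low depth. Of the 313 tested genes without reads in MI-503, 207 had a higher mean in DMSO than PCA3.

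Most of the reads assigned to PCA3 lay where they could also come from PRUNE2. A single transcript, PCA3-211 (chr9:76704848-76710661), took 26.2 of the 43.9 reads in DMSO replicate 1, 40.2 of the 47.4 in replicate 2 and none of the 15.0 in replicate 3. Those are 59.8%, 84.8% and 0% of the PCA3 reads. PCA3-211 has 2 exons, of 709 and 129 bases, and all 838 bases lie opposite exon 8 of PRUNE2, the largest exon of the gene with 6598 bases (chr9:76704761-76711358). Of its 808 windows of 31 bases, 779 (96.4%) occur in the reverse complement of PRUNE2-207. The remaining windows cross its splice junction, whose intron of 4976 bases begins with GT and ends with AG on the plus strand. That junction is printed because it is what sets PCA3-211 apart from PRUNE2, with the last 30 bases of exon 1 in lower case and the first 30 of exon 2 in capitals (GRCh38, plus strand).
PCA3-211 junction: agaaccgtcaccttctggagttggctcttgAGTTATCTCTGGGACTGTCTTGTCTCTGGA

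Whether the libraries kept strand is not given in the sources used here. Without strand, reads from inside these exons cannot be told apart between PCA3-211 and PRUNE2, and the deposited estimates do not give reads per junction. Without PCA3-211 the bound on PCA3 was at least 11.6-fold. The 4 transcripts inside the RefSeq span of PCA3 had 8.90, 6 and 10.1 reads in DMSO replicates 1, 2 and 3 and none in MI-503, a bound of at least 7.28-fold. They came from PCA3-201 in replicate 1 (8.87 reads), from PCA3-210 in replicate 2 (6 reads) and from PCA3-210 and PCA3-215 in replicate 3 (7.14 and 3 reads). The other 13 transcripts, which reach beyond that span, had 8.80, 1.2 and 4.90 reads. Over the whole gene, 9 of 18 PCA3 transcripts touch a PRUNE2 exon and 1060 bases lie in exons of both genes. No PCA3 transcript had reads in all 3 DMSO libraries, and 9 had reads in at least 1.

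**Figure D2:**
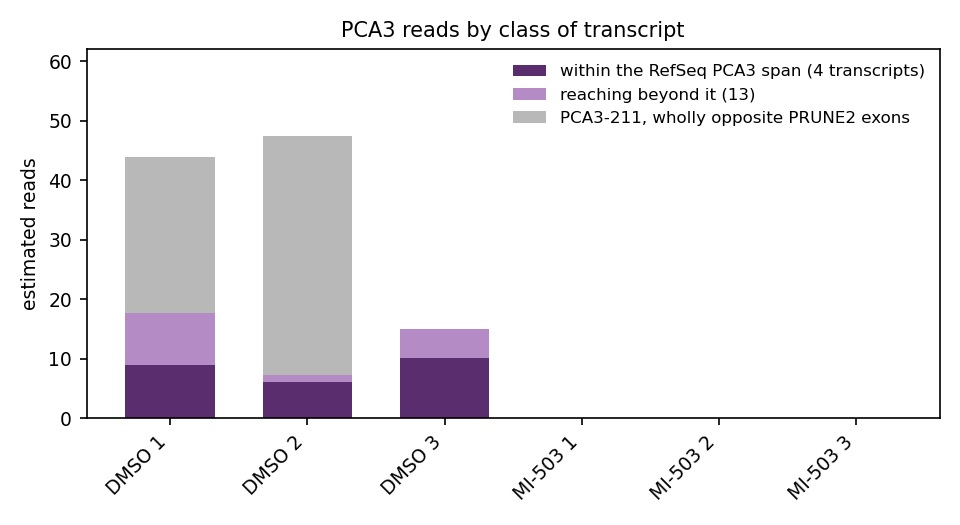
Estimated reads assigned to PCA3 in each library, stacked by class of transcript: the 4 within the RefSeq span, the 13 that reach beyond it, and PCA3-211, which lies wholly opposite PRUNE2 exons. PCA3-211 makes up 59.8% and 84.8% of the bar in DMSO replicates 1 and 2 and none of it in replicate 3, where 10.1 of 15.0 reads are within the RefSeq span.

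The ratio of antisense to sense RNA differed between the DMSO libraries. Summed over transcripts, PCA3 reached 4.17%, 8.62% and 2.23% of the PRUNE2 level in TPM in DMSO replicates 1, 2 and 3, a mean of 5.01 ± 3.28% (SD, n = 3). Without DMSO replicate 2 the mean was 3.20%. Set against the 3 PRUNE2 transcripts that span PCA3, the mean ratio was 10.3 ± 8.26%. With the RefSeq span of PCA3 alone, the ratio in TPM was 0.198%, 0.212% and 1.88%, and DMSO replicate 3 passed from the lowest to the highest of the 3. The order of the libraries thus rested on where PCA3 is drawn and on PCA3-211. PRUNE2 was highest in replicate 1 and PCA3 in replicate 2, and 3 libraries are too few for a correlation. No ratio exists in MI-503, where both genes were at 0.

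By reads, PRUNE2 RNA in the DMSO libraries was mostly the long form that runs across PCA3, with 82.5%, 68.5% and 74.4% of reads in replicates 1, 2 and 3 from the 3 spanning transcripts. By TPM, which does not favour long transcripts, the same 3 held 58.7%, 43.8% and 54.1%, less than the rest together in replicate 2. Of its 14 transcripts, 11 had reads in at least 1 DMSO library, 7 had reads in all 3, and PRUNE2-201, PRUNE2-209 and PRUNE2-212 had none. PRUNE2-207, a transcript of 18 exons and 12356 bases that codes for protein, took 61.8%, 50.7% and 53.3% of the PRUNE2 reads, a mean of 55.3 ± 5.79% (SD, n = 3). PRUNE2-205, which is annotated with an incomplete 5′ end, took 11.9%, 15.5% and 16.6%. PRUNE2-203, of 19 exons, took 14.8%, 12.5% and 9.60%. PRUNE2-202 took 4.68%, 15.3% and 8.56%, and PRUNE2-206 took 5.89%, 5.25% and 11.5%. By these estimates PRUNE2-207 led in every DMSO library, while the order of the next 4 changed from library to library. The 7 transcripts without a defined coding sequence held 0.667 ± 0.228% of the reads. Over the pooled DMSO libraries the leading transcript of PRUNE2 held 56.7% of its reads, and 28.8% of 6847 genes with at least 1000 reads and 5 transcripts had a smaller leading share.

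**Figure D3:**
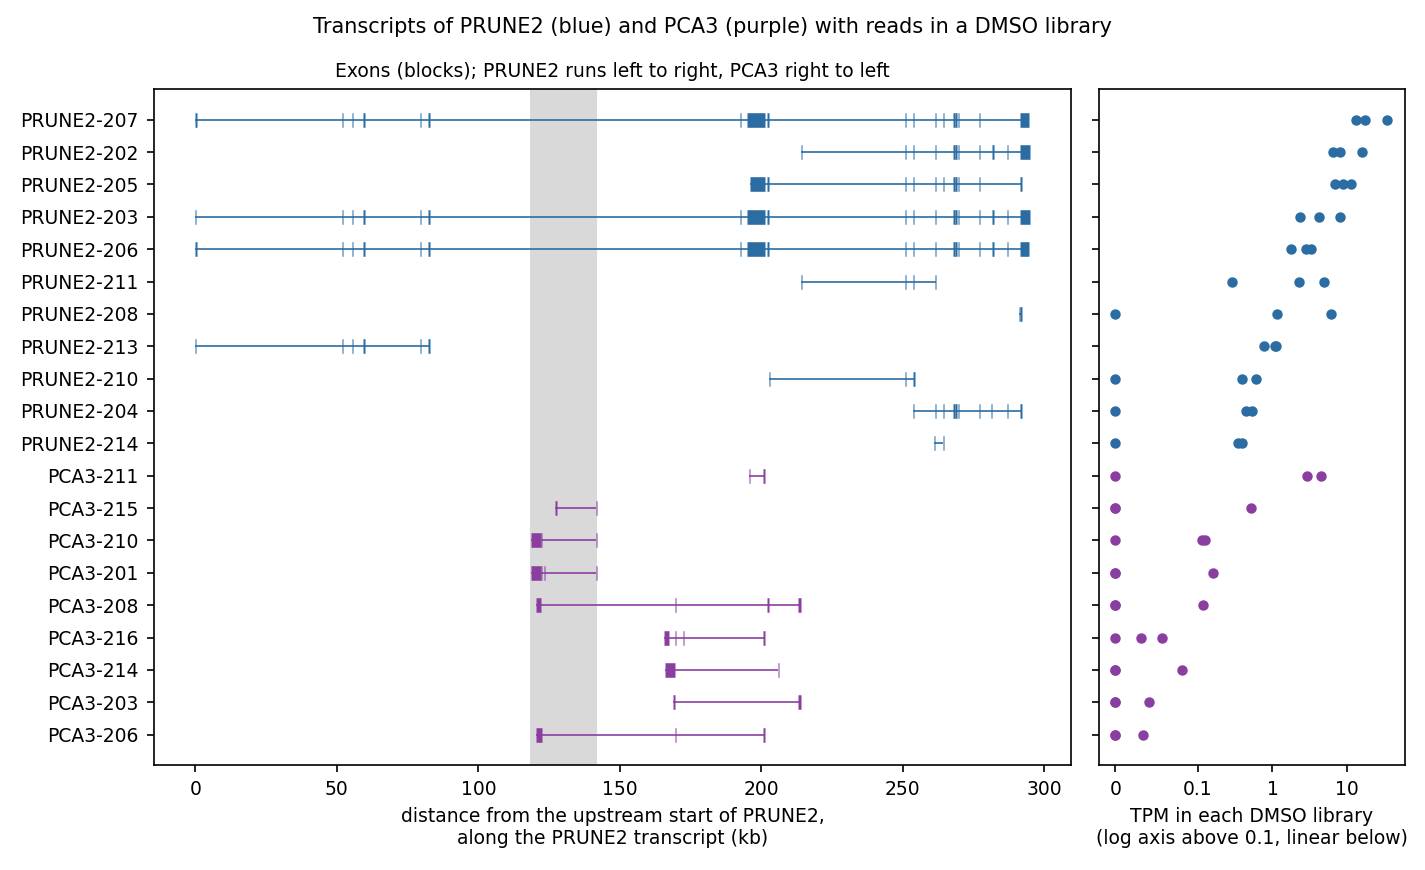
Exons of the 11 PRUNE2 and 9 PCA3 transcripts with reads in a DMSO library, by distance in kb from the upstream start of PRUNE2, with the RefSeq PCA3 span shaded (left), and their TPM in the 3 DMSO libraries, 1 point per library (right, log axis above 0.1). PRUNE2-207, PRUNE2-203 and PRUNE2-206 cross the shaded span, and PCA3-211 sits under the widest PRUNE2 exon.

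The 2 starts were used unequally. The 5 transcripts from the upstream start held 82.6% of the PRUNE2 reads in DMSO replicate 1 (95% Wilson interval 81.9 to 83.3), 68.7% in replicate 2 (67.6 to 69.9) and 74.7% in replicate 3 (73.5 to 75.9), a mean of 75.4 ± 6.94%. The 3 transcripts from the internal start held 5.05% (4.65 to 5.47), 15.6% (14.7 to 16.5) and 8.61% (7.87 to 9.40). The other 6 transcripts, annotated from neither place, held 12.4%, 15.7% and 16.7%. Most of that was PRUNE2-205, whose annotated 5′ end is incomplete, so its true start is not known. It has 0 bases of its own within the gene, so its reads could also come from upstream-start transcripts. PRUNE2-207, PRUNE2-206 and PRUNE2-202 likewise have 0 bases of their own, and PRUNE2-203 has 27. PRUNE2-202 is annotated with an incomplete 3′ end. The shares of these transcripts thus rest on how the estimates divide reads from shared exons. The intervals of the 3 libraries did not overlap for the upstream or the internal start, but they cover counting error only and not the uncertainty of dividing reads between transcripts that share exons. Per length the picture was less one-sided, since long transcripts yield more reads: the upstream start held 54.3 ± 7.36% of the PRUNE2 level in TPM and the internal start 23.6 ± 9.57%. The internal start took its largest share in DMSO replicate 2, at 34.5% of TPM against 45.9% for the upstream start, and most of that was PRUNE2-202, with 16 TPM there against 8.07 and 6.47 TPM in replicates 1 and 3.

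**Figure D4:**
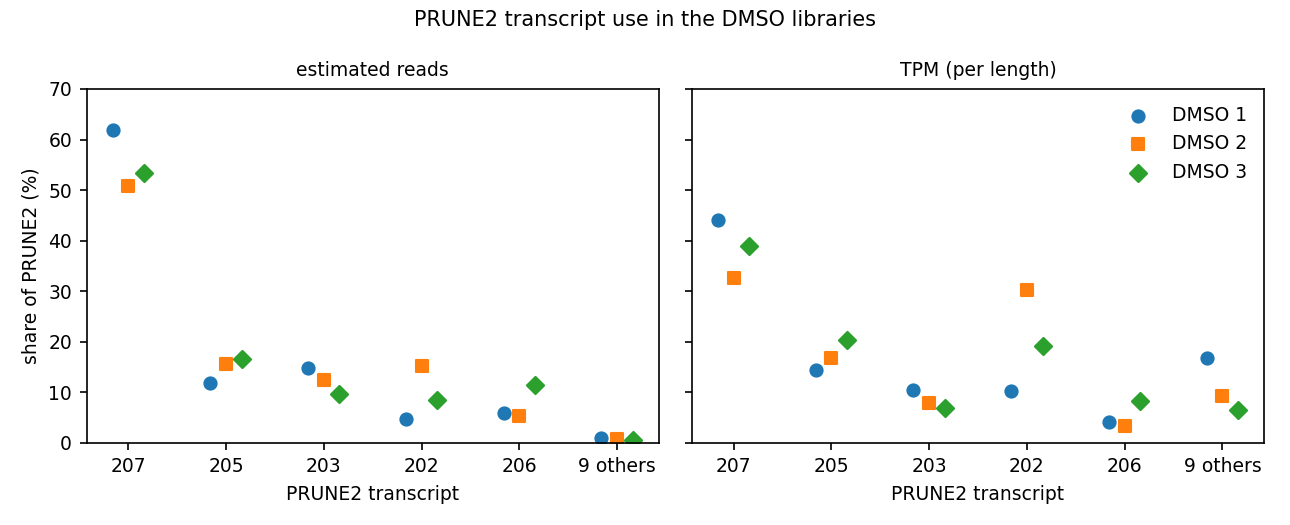
Share of PRUNE2 held by its 5 main transcripts and by the 9 others together in each DMSO library, as estimated reads (left) and as TPM (right). PRUNE2-207 leads on both scales in every library, at 50.7 to 61.8% of reads and 32.6 to 44.2% of TPM, and PRUNE2-202 spreads most, from 10.2 to 30.1% of TPM.

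The main transcripts also differ by 3 short exons near the 3′ end. A 9-base exon (chr9:76641972-76641980) is present in PRUNE2-207, PRUNE2-205 and PRUNE2-204. An exon of 39 bases (chr9:76624452-76624490) and one of 48 bases (chr9:76619340-76619387) are present in PRUNE2-203, PRUNE2-206 and PRUNE2-202, and the 48-base exon also in PRUNE2-204. They are shown with 20 spliced bases on each side in lower case and the exon in capitals, from the GENCODE transcripts on the minus strand, because they tell the main forms apart.
9-base exon in PRUNE2-207: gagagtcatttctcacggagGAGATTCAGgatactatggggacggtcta
39-base exon in PRUNE2-203: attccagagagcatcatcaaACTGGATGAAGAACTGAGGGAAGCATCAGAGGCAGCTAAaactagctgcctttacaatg
48-base exon in PRUNE2-203: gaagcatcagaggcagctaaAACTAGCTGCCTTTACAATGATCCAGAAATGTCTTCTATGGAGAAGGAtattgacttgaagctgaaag

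Shares were taken for the 9-base exon over the 7 transcripts with the exons on either side of it, and for the other 2 exons over the 6 transcripts that hold both the 99-base exon before them and the last exon. Those with the 9-base exon held 70.6%, 54.4% and 63.8% of the TPM in DMSO replicates 1, 2 and 3, a mean of 62.9 ± 8.12% (SD, n = 3). Those with the 39-base exon held 29.5%, 45.6% and 36.2% (37.1 ± 8.12%), and those with the 48-base exon 30.3%, 45.6% and 37.6% (37.8 ± 7.68%). Forms with the 9-base exon and without the 39-base exon were the larger part in each DMSO library. The 3 shares are not independent, because no annotated long form carries both the 9-base and the 39-base exon.

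The 10 tested neighbours of PRUNE2 split by direction. GENCODE places 65 genes within 3 Mb of either end of PRUNE2, and 10 of them passed the low-count filter. By the edgeR test, adjusted over all 16442 genes, 5 were lower in MI-503, 2 were higher and 3 were not called, with a median log2 fold change of -0.45. Of all genes tested, 31.2% were lower and 31.7% higher, with a median of -0.00. GCNT1, which encodes an enzyme that branches O-linked glycans, was at 43.3, 40.7 and 26.1 CPM in DMSO and 0.779, 0.836 and 0.297 CPM in MI-503. Its log2 fold change was -5.81 ± 0.37 (SE; adjusted p = 8.38e-07). GCNT1 lies on the plus strand, and its transcript GCNT1-206 reaches into the 3′ part of PRUNE2 with 262 bases opposite PRUNE2 exons. That transcript held 6, 5 and 1.08 reads in the DMSO libraries, while GCNT1-203, with no base in the PRUNE2 span, held 495, 524 and 277. RFK, riboflavin kinase, was at 60.4 ± 5.86 CPM in DMSO and 13.2 ± 1.48 CPM in MI-503 (log2 fold change -2.20 ± 0.17; edgeR adjusted p = 3.80e-06).

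On the side of the upstream start the nearest tested gene was VPS13A, a lipid transfer protein, at 73.1 ± 16.1 CPM in DMSO and 26.1 ± 5.52 CPM in MI-503 (log2 fold change -1.49 ± 0.22, edgeR adjusted p = 0.000213). PSAT1, a serine synthesis enzyme, fell from 448 ± 180 to 9.57 ± 1.14 CPM (-5.55 ± 0.35), and CEP78, a centriole protein, from 48.4 ± 8.99 to 24.4 ± 2.63 CPM (-0.99 ± 0.19). GNAQ, which encodes the α subunit of Gq, rose from 20.5 ± 4.40 to 67.0 ± 4.23 CPM (1.71 ± 0.19). On the side of the 3′ end, beyond GCNT1 and RFK, OSTF1 rose from 26.2 ± 5.25 to 53.6 ± 5.89 CPM (1.03 ± 0.19). C9orf40, CARNMT1 and NMRK1, also on the 3′ side, were not called, at log2 fold changes of 0.25 ± 0.19, 0.10 ± 0.14 and 0.51 ± 0.23. The count of lower neighbours was 8 without DMSO replicate 3 and 9 with no filter on low counts. More neighbours were tested in those 2 settings, and the 10 tested in the main fit kept their calls.

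**Figure D5:**
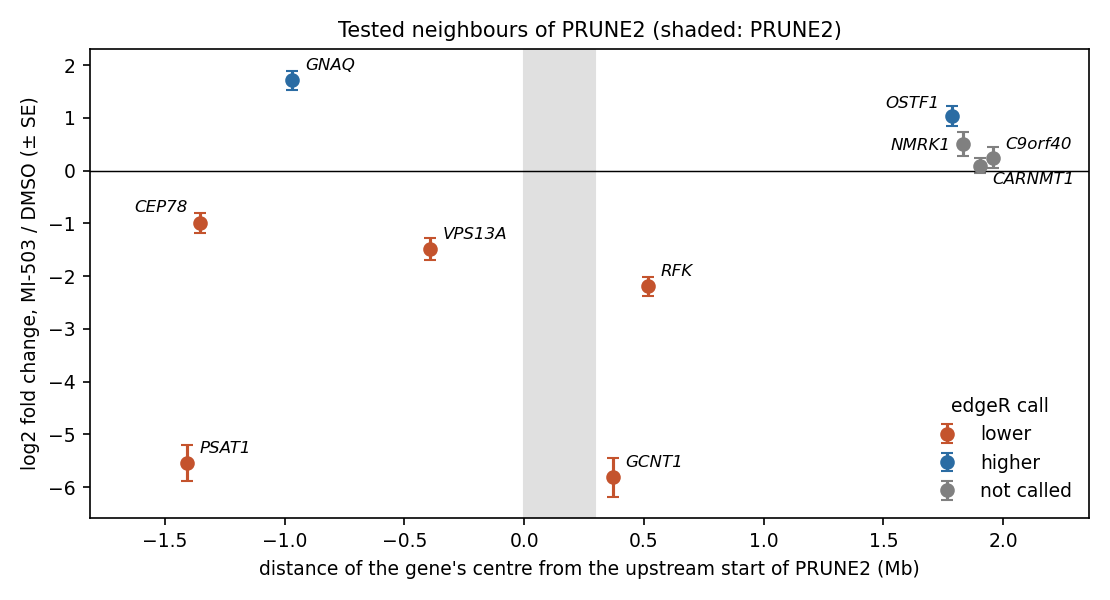
Log2 fold change (MI-503 against DMSO) with its SE for the 10 tested genes within 3 Mb of PRUNE2, by the distance of the gene's centre from the upstream start of PRUNE2 in Mb, coloured by the edgeR call. GCNT1, RFK and VPS13A, the closest to the shaded PRUNE2 gene, are lower, while GNAQ and OSTF1 are higher.

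The editing and double-stranded RNA genes moved in both directions. Of 25 genes listed, 24 were analysed and 22 tested, of which 6 were higher and 11 lower in MI-503 and 5 were not called, with a median log2 fold change of -0.42, where 31.7% of all genes tested were higher and 31.2% lower. The count of lower genes was 7 without MI-503 replicate 2. ADAR, the main editing enzyme, was at 377, 319 and 333 CPM in DMSO and 473, 458 and 470 CPM in MI-503, and the groups did not overlap. Its log2 fold change was 0.45 ± 0.14 (edgeR adjusted p = 0.0196), and the adjusted p ranged from 0.0109 to 0.0731 over 12 alternatives, rising above 0.05 with upper-quartile scaling (0.0522) and without DMSO replicate 2 (0.0731). ADARB1, the second catalytically active enzyme, was lower, at 33.6 ± 4.99 CPM in DMSO and 8.86 ± 0.879 CPM in MI-503 (log2 fold change -1.93 ± 0.20, adjusted p = 2.18e-05). ADARB2, a family member without known editing activity, was at 5.89 ± 3.12 and 0.866 ± 0.211 CPM (-2.76 ± 0.51). So the libraries with PRUNE2 and PCA3 reads also had more ADARB1 and ADARB2 and less ADAR. PRKRA, an activator of the kinase PKR, rose (1.18 ± 0.17) as did the double-stranded RNA binding protein STAU1 (0.90 ± 0.16), while AIMP2 fell (-1.16 ± 0.17). Editing itself was not measured, since the files hold expression estimates and no bases.

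The tested relatives of PRUNE2 were higher or not called. Of 7 genes of the BCH domain and prune family list, 6 were tested, and 3 were higher and 3 not called, with a median log2 fold change of 0.79, beside 31.7% higher and 31.2% lower over all genes. By edgeR, 0 of 6 were lower, also 0 at an unadjusted p under 0.05 and 0 by DESeq2, and leaving out DMSO replicate 1 gave 1, NME1, a partner of prune proteins that was chosen for the list with them (adjusted p = 0.00824, over a range of 0.00824 to 0.419 in 12 alternatives). PRUNE1, the other human prune gene, was at 38.9, 32.4 and 26.5 CPM in DMSO and 92.6, 91.8 and 79.0 CPM in MI-503, a log2 fold change of 1.43 ± 0.18 (adjusted p = 8.50e-05). BNIPL, a BCH domain protein, was at 0.341 ± 0.0614 CPM in DMSO and 107 ± 21.8 CPM in MI-503 (8.27 ± 0.28), so it was near absent where PRUNE2 was high. ARHGAP1, the Cdc42GAP of the domain's name, rose from 92.3 ± 8.82 to 180 ± 10.5 CPM (0.96 ± 0.15). BNIP2 had a log2 fold change of 0.62 ± 0.25 and an adjusted p of 0.0507 that ranged from 0.00789 to 0.152 over the alternatives.

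Genes of the RHOA cycle were called in both directions. Of 42 listed, 40 were tested, 17 were higher and 10 lower in MI-503 and 13 were not called, and the median log2 fold change was 0.16. The list as a whole was called at 67.5%, beside 62.9% of all genes, of which 31.7% were higher and 31.2% lower. RHOA itself was at 375, 418 and 377 CPM in DMSO and 281, 367 and 327 CPM in MI-503, and its log2 fold change of -0.27 ± 0.16 was not called (edgeR adjusted p = 0.161). Of its kinases, ROCK1 was not called at 0.13 ± 0.17 (edgeR adjusted p = 0.541) and ROCK2 was lower at -0.64 ± 0.21 (edgeR adjusted p = 0.0222). The ROCK2 call was lost without DMSO replicate 1 (0.0733), DMSO replicate 2 (0.0574) or MI-503 replicate 3 (0.0934), in a range of 0.00609 to 0.0934 over 12 alternatives. RIPOR2, an inhibitor of RHOA, had the pattern of PRUNE2, at 90.1, 62.2 and 54.2 CPM in DMSO and 0 reads in MI-503. RND3, an atypical small GTPase that opposes RHOA signaling, had the reverse pattern, at 0.0452, 0 and 0 CPM in DMSO and 24.5, 24.0 and 20 CPM in MI-503. MYL9, a myosin light chain downstream of ROCK, was at 0.268 ± 0.233 and 137 ± 12.3 CPM (8.99 ± 0.37), ARHGDIB, a GDP dissociation inhibitor, at 0.275 ± 0.115 and 16.6 ± 5.06 CPM (5.87 ± 0.41), and the exchange factors ARHGEF28 and ECT2 rose by 4.09 ± 0.25 and 1.82 ± 0.17 on the log2 scale.

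PRUNE2 is also known from nervous tissue, and markers of neural and smooth muscle cells were checked. Among 9 smooth muscle markers, 6 were tested, with 2 higher, 2 lower and 2 not called, and their summed level was 59.6 to 91.3 CPM in DMSO and 89.4 to 127 CPM in MI-503. DES, the muscle intermediate filament, and CASQ2 had no reads in DMSO. SMTN was at 57.6 ± 17.6 CPM there and ACTA2 at 7.76 ± 1.28 CPM, with MYH11 at 0.539, LMOD1 at 0.292 and CNN1 at 0.0455 CPM. ACTG2, smooth muscle actin, was at 0.497, 0.677 and 0.774 CPM in DMSO with no reads in MI-503, and SYNM, a further intermediate filament protein, was at 7.47 ± 1.48 and 0.971 ± 0.244 CPM. Among 9 neural markers, 4 were tested, with 1 higher, 1 lower and 2 not called, and the summed level was 24.3 to 33.5 CPM in DMSO and 23.6 to 30.6 CPM in MI-503. Beside both lists, 31.7% of all genes tested were higher and 31.2% lower. STMN2, ELAVL4, SNAP25 and CHGA had no reads in the DMSO libraries in which PRUNE2 reached 234 to 491 CPM. NEFL, a neurofilament chain, was at 2.98, 3.58 and 1.69 CPM in DMSO, and RBFOX3 at 0.0904, 0.145 and 0.820 CPM, and both had no reads in MI-503. ACTG2, SYNM and NEFL were the 3 called lower among both lists, RBFOX3 could not be tested, and their part in the PRUNE2 level was not tested.

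The protein-coding genes with a pattern most like PRUNE2, by Euclidean distance of log2(CPM + 1) over the 6 libraries, were MME (0.651), ABCC4 (0.826), KLK2 (0.884), PRKD1 (1.06) and NRP1 (1.17). The membrane protease neprilysin, MME, stood at 715, 361 and 288 CPM in the DMSO libraries in that order and at most 0.0522 CPM in MI-503. Like PRUNE2, MME, ABCC4, PRKD1 and NRP1 were highest in DMSO replicate 1 and lowest in replicate 3, while KLK2, a prostate kallikrein, was at 352, 321 and 392 CPM. The lncRNA genes nearest to PCA3 were ENSG00000286585 (0.273), ENSG00000285644 (0.310), OXCT1-AS1 (0.365), LINC00930 (0.368) and ENSG00000225057 (0.438), all between 0.638 and 2.61 CPM in DMSO. Of these 5, which were picked for their likeness, ENSG00000285644 and LINC00930 had no reads in MI-503, as PCA3, and the other 3 had at most 0.244 CPM there. These likenesses are descriptions over 2 groups, to which the contrast itself contributes most.

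PRUNE2 and PCA3 were set beside other nested pairs on opposite strands. In 361 pairs, an lncRNA gene lay wholly inside a protein-coding gene on the other strand and both passed the filter. Both genes were lower in MI-503 in 49 pairs (13.6%), PRUNE2 and PCA3 among them by choice, both were higher in 56, they went opposite ways in 20, and 236 had at most 1 gene called. Per length, PCA3 stood at 5.20% of PRUNE2 by mean TPM in DMSO, against a median of 7.21% over the 334 pairs whose host reached 1 CPM, and 144 of those pairs had a lower ratio. That place rests on the scale and on PCA3-211: by CPM, PCA3 stood at 0.475% of PRUNE2 against a median of 2.90%, with 43 pairs lower, and the RefSeq span of PCA3 alone gave a mean of 0.765% in TPM. Both genes lacked reads in MI-503 in 4 autosomal pairs, PRUNE2 and PCA3 included. In the other 3, PPFIA2 was at 74.7 CPM in DMSO with its antisense ENSG00000258162 at 40.7 CPM, PRKD1 at 237 CPM with ENSG00000287142 at 0.801 CPM, and ALPK2 at 2.93 CPM with ENSG00000267257 at 1.13 CPM. PRKD1 is thus both among the genes nearest to PRUNE2 in pattern and host to an antisense lncRNA of comparable low level. How many of these pairs share exonic sequence was not tested.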

How the data were processed

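Total RNA from 6 cultures labelled T47D was sequenced and quantified by the authors with salmon. The deposited files hold an estimated count and a TPM value for each transcript of each library, and these values were used as deposited. The submitters' processing notes name hg38 and GRCh38.p13. For annotation release and strandedness, the status is: not given in the sources used here. For this work transcripts were matched without version to GENCODE 44 (229321 of 232117, 98.8%, at least 99.16% of reads in each library) and summed to 61279 genes. Estimated counts were rounded for edgeR 4.0.16 (R 4.3.3): TMM scaling (factors 0.934 to 1.052), filterByExpr, quasi-likelihood test, Benjamini-Hochberg adjustment and a call at an adjusted p under 0.05. CPM used the TMM-scaled library sizes. SEs come from the fold change and its F statistic. The study's rule with a log2 fold change beyond 2 called 24.3% of 16442 genes against 62.9% at any fold. The test was also run on simulated counts in which few genes changed, which does not measure its error in these data.

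PRUNE2, PCA3 and the gene lists were chosen with earlier results of these data known, and no test result is given for either member. Both were in the fit over all genes, and their calls entered the count of nested pairs. Genes of the pathway lists were named by the 6 smallest adjusted p per list, besides ADAR, ADARB1, ADARB2, RHOA, ROCK1, ROCK2 and PRUNE1, and 1 of them is not reported here. All tested neighbours were named, and the 5 genes nearest to each member. Of nested pairs, autosomal ones without reads in MI-503 were named after their values were seen. Alternatives were DESeq2 1.42.0, RLE and upper-quartile scaling, other filters, a replicate block and leaving out each library. Transcripts with no defined coding sequence stood for the processed transcripts of older annotations.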

Additional observations from a re-analysis of the deposited data

How the results depend on the processing

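The bounds on PRUNE2 and PCA3 rest on no test, so filters, the block and DESeq2's test could not change them. Without 1 library they ranged from 4182 to 7672 for PRUNE2 and from 19.7 to 40.2 for PCA3, and after seeing the data PCA3 was also bounded without PCA3-211 (11.6) and over its RefSeq span (7.28). The upstream start held 54.3% of PRUNE2 by TPM (71.7 to 78.7% of reads without 1 library). The PCA3 to PRUNE2 ratio was 0.472% by reads, 10.3% over spanning transcripts, 0.765% with the RefSeq span, and 3.20 to 6.4% without 1 library. With no filter on low counts there were 9 lower neighbours. Without 1 library there were 5 to 8 lower neighbours, 7 to 11 lower editing genes and 0 to 1 lower BCH and prune genes. Lower neighbours beyond 5 were genes outside the 10 tested in the main fit. Pairs that overlap by at least 1 base gave 205 both lower, 157 both higher and 107 opposite, and DESeq2 gave 76 nested pairs both lower. Upper-quartile scaling shifted the median gene by -0.10 (log2). The replicate block gave 5071 higher and 4913 lower genes and 44 nested pairs both lower, and left the calls of the 32 named genes as they were. Same-numbered libraries correlated at -0.10, 0.08 and -0.08 in their deviations from the group means, so they share only a number. Of 384 checks on those 32 genes, 373 kept direction and side of the threshold, 5 (ADAR, ROCK2) lost it, 6 (BNIP2, NME1, NMRK1) gained it and 0 changed sign. The causes were not tested. Depth limits PCA3, whose 15.0 to 47.4 reads per DMSO library leave its transcript use unresolved.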
